A study of Mus musculus with 3 samples.

Results

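Lysosomal proteases and lysosomal membrane glycoproteins were measured in ribosome-associated RNA of the mouse heart. The set holds 10 genes, of which 8 encode proteases (Ctsa, Ctsb, Ctsd, Ctsh, Ctsl, Ctss, Ctsz and Lgmn) and 2 encode the abundant membrane glycoproteins of the lysosome (Lamp1 and Lamp2). Members are defined by gene symbol alone, and all 10 were among the 17583 genes of the deposited table. The RNA came from 3 mice with the genotype Cdh5-CreERT2;Rpl22tm1.1Psam (EC-RiboTag), in which tamoxifen-induced Cre under the Cdh5 promoter tags the ribosomal protein RPL22 in endothelial cells, and tagged ribosomes were immunoprecipitated from heart homogenate before sequencing. In the sample labels the hearts are given as collected on day 7 after coronary ligation. The tissue is labelled heart and the titles read hrtRz, which the labels do not spell out. The study abbreviates the remote zone of infarcted hearts as RZ and describes EC-RiboTag hearts divided into zones in another experiment, while its account of the RiboTag sequencing names neither an infarct nor a zone, so whether these libraries hold whole heart or remote zone cannot be told apart here. Age and sex are not given in the labels. All 3 libraries belong to this single group, and no input or control library was analysed here, so values are levels within the immunoprecipitate and no difference between conditions was tested.

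Lysosomes are acidic compartments in which hydrolases break down material taken up by endocytosis or delivered by autophagy. Cathepsins are made as inactive precursors, sorted mostly through mannose 6-phosphate receptors, and activated by cleavage at low pH. They belong to different catalytic classes. CTSB, CTSH, CTSL, CTSS and CTSZ are papain-like cysteine proteases, legumain is a cysteine protease of another family that cuts after asparagine, CTSD is an aspartic protease, and CTSA is a serine carboxypeptidase. LAMP1 and LAMP2 line the inner face of the lysosomal membrane with glycans. All of these genes are active in many cell types, and macrophages are known to be rich in them, with CTSS a protease typical of antigen-presenting cells.

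Many lysosomal genes carry a CLEAR element, the binding motif of the transcription factors TFEB, TFE3 and MITF, whose core is CACGTG. This core was searched in GRCm39, which is the build of the deposited table, from 250 bases before to 50 bases after the start of the canonical transcript, and its palindrome makes both strands equivalent. It occurred in the windows of 3 of the 10 genes, Ctsb, Ctsd and Lamp1, and in 9.56% of the 14236 windows of protein-coding genes in the table. With the longer motif TCACGTG on either strand the same count was 3, against 5.31% of all windows. The stretches of 30 bases with the core are shown on the strand of each gene because they are a sequence feature that the choice of the genes did not use. Capitals mark the core.
Ctsb (chr14:63359879-63359908, plus strand): gcggtcaagcatCACGTGacgaatcagccc
Ctsd (chr7:141941792-141941821, minus strand): tcttccttccccCACGTGacctgtatccag
Lamp1 (chr8:13209096-13209125, plus strand): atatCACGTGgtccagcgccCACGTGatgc
Lamp1 (chr8:13209127-13209156, plus strand): gactggCACGTGaccacatCACGTGcggaa
Lamp1 held 4 copies of the core, Ctsb and Ctsd 1 each. With the first base of the canonical transcript counted as 0, the core began at 14 in Ctsb, at -34 in Ctsd, and at -21, -5, 12 and 25 in Lamp1. These transcript starts are those of the GENCODE annotation, whereas the bounds of genes given further on are those of the deposited table, and for Ctsb and Lamp1 the GENCODE start lies upstream of the deposited one. Among 63 promoters of the other lysosomal genes described further on, 19 held the core. A match of these letters is not evidence of a bound factor, and binding was not measured here. The factors themselves were listed at different levels. Tfe3 had a mean normalized count of 946 ± 18.2 (SD, n = 3 mice), Tfeb 656.7 ± 53.5, Mitf 227 ± 27.6 and Tfec, whose product is related to them, 3.7 ± 2.1.

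The deposited values are normalized counts, meaning reads per gene that were scaled to equalize the libraries and then rounded. Their sums were 7149102 to 7268785 per library, and 1 read was estimated to be worth 0.961 to 1.06 of them, which gives about 6757000 to 7564000 reads per library. Differences between mice exceeded counting noise. The coefficient of variation (CV, the SD as a percentage of the mean) beyond counting was 9.08%. It was pooled over 14441 genes with a mean of 10 or more, and genes with high values weigh most in it. Levels of different genes were compared per base of the canonical transcript, the reference isoform of the annotation. On this scale the 12 endothelial marker genes had a median of 0.672 ± 0.021 (SD, n = 3), 10 cardiomyocyte genes 0.565 ± 0.019, 8 fibroblast genes 0.101 ± 0.021, 8 mural cell genes 0.0460 ± 0.0056 and 18 macrophage genes 0.0317 ± 0.0094. Among these lists the endothelial median was the highest and the cardiomyocyte median came next. Both lie in the range where the removal of duplicate reads, described with the levels per base, limits the values, and the effect of this limit on their order was not tested. The part of each cell type in the level of a widely expressed lysosomal gene was not tested. For genes of other cells, fewer cells of a type, less RNA per cell and less carry-over into the immunoprecipitate cannot be told apart. The study compared markers of cell types between immunoprecipitate and input by qRT-PCR, and no input library was analysed here.

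Ctsb, which encodes a cysteine protease with endopeptidase and peptidyl-dipeptidase activity, had the highest normalized counts of the 10 genes. Its values were 2169, 2076 and 1956 in mice 1, 2 and 3 (2067 ± 107, SD, n = 3), which placed it at rank 210 of the 17583 genes. The gene (ENSMUSG00000021939) lies on the plus strand of chromosome 14 of GRCm39 from 63359911 to 63383372. Mice differed little in Ctsb, with a CV of 5.17%, of which counting alone gives 2.20%.

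Ctsl encodes the related endopeptidase cathepsin L. Its normalized counts were 1178, 1055 and 1000 (1078 ± 91.1, SD, n = 3). The gene (ENSMUSG00000021477) occupies chromosome 13 from 64507151 to 64518704 on the minus strand, and 1.97% of the stretches of 72 bases of its canonical transcript, the read length, have an exact copy on chromosome 14, whereas the other 9 genes have none elsewhere in the genome. Mouse 1 was highest and mouse 3 lowest for both Ctsb and Ctsl.

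Ctsd encodes the main aspartic protease of the lysosome and had normalized counts of 756, 747 and 675 (726 ± 44.4, SD, n = 3). Ctsd (ENSMUSG00000007891) occupies chromosome 7 from 141929648 to 141941775, minus strand. In the annotation used here, 38.0% of the bases of its canonical transcript also belong to exons of the readthrough gene Gm49369 on the same strand, and the authors left out reads overlapping several genes. Whether reads of Ctsd were lost in this way was not tested. Of the other members only Ctsl shared bases on its own strand, 6.69% of its canonical transcript, with the pseudogene Gm49230.

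Ctsz, which encodes a carboxypeptidase, had normalized counts of 824, 826 and 767 (805.7 ± 33.5, SD, n = 3). The gene (ENSMUSG00000016256) occupies chromosome 2 from 174269286 to 174280832, minus strand. Ctsa, on the plus strand of the same chromosome from 164674793 to 164682952 (ENSMUSG00000017760), encodes the protective protein that stabilizes neuraminidase 1 and beta-galactosidase, and its normalized counts were 917, 933 and 871 (907 ± 32.2, SD, n = 3). Both genes were lowest in mouse 3 and nearly equal in mice 1 and 2, with CVs of 4.16% for Ctsz and 3.55% for Ctsa.

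Both membrane glycoprotein genes were close to each other in normalized counts. Lamp1 (ENSMUSG00000031447, chromosome 8 from 13209161 to 13225338, plus strand) had 1595, 1617 and 1523 (1578 ± 49.2, SD, n = 3). Lamp2 (ENSMUSG00000016534, chromosome X from 37490234 to 37545331, minus strand) had 1540, 1555 and 1425 (1507 ± 71.1, SD, n = 3). In each mouse Lamp1 was slightly above Lamp2, and mouse 3 was the lowest for both. Lamp2 is known to be spliced to alternative last exons, of which LAMP2A serves as the receptor of chaperone-mediated autophagy. The annotation lists 28 protein-coding transcripts of Lamp2 and 16 of Lamp1, and counts per gene cannot separate them.

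Ctsh, Lgmn and Ctss differed more between mice than the other 7 genes. Ctsh, which encodes an aminopeptidase and lies on the plus strand of chromosome 9 from 89936205 to 89958142 (ENSMUSG00000032359), had normalized counts of 539, 453 and 648 (546.7 ± 97.7, SD, n = 3). It was the only member with its highest value in mouse 3, 1.43 times the value of mouse 2. Lgmn, whose product legumain also processes several cathepsins, occupies chromosome 12 from 102360343 to 102406072 on the minus strand (ENSMUSG00000021190) and had 493, 653 and 638 (594.7 ± 88.4, SD, n = 3). Mouse 1 stood below the other mice for Lgmn.

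Ctss was by far the lowest of the 10 genes, with normalized counts of 52, 79 and 58 (63 ± 14.2, SD, n = 3), and lies on the plus strand of chromosome 3 from 95434097 to 95463714 (ENSMUSG00000038642). These values rest on about 53, 75 and 60 reads. The highest value was 1.52 times the lowest, and its CV of 22.5% compares with 12.6% from counting alone. Among 671 genes with a mean between 50 and 80, a range chosen after its value was seen, the median CV was 20.8%, and 46.3% of them had a higher CV than Ctss. The spread of Ctss between mice was therefore usual for a gene of this level.

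**Figure D1:**
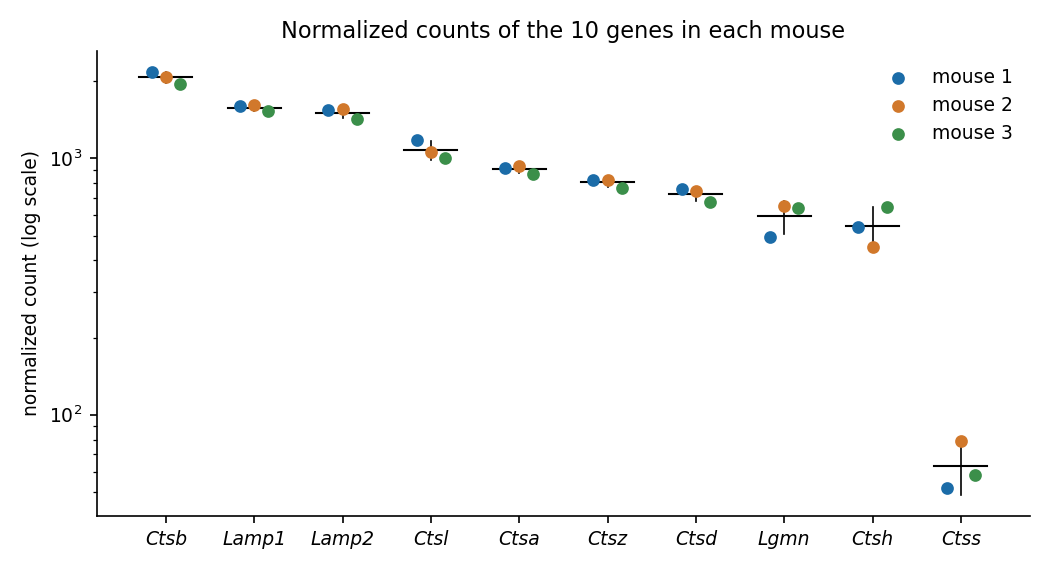
Normalized counts of the 10 genes in each of the 3 mice on a log axis, with the mean (horizontal line) and SD (vertical line). Ctsb is highest with a mean of 2067 and Ctss lowest with 63, and the values of Ctsh, Lgmn and Ctss lie farther apart between mice than those of the other genes.

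A mean of 200 or more was reached by 9 of the members, and none of these had a CV over 20%, against 8.00% of the 9358 genes in the table at this level. The CVs of these genes ran from 3.12% for Lamp1 to 17.9% for Ctsh, around the median of 7.37% over all such genes. With mouse 1 left out the count was 1, Ctsh. A count of 0 among 9 genes is not far from such a share, and it was not tested.

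Divided by the length of the canonical transcript, the membrane glycoprotein genes stood above the proteases. Lamp2, with a canonical transcript of 1778 bases in 9 exons, had 0.847 ± 0.040 normalized counts per base (SD, n = 3) and ranked 31 among the 9356 genes at this level for which a length was known. Lamp1, with 2571 bases in 9 exons, had 0.614 ± 0.019 and ranked 255. Of the proteases, Ctsb was the highest with 0.433 ± 0.022 per base and rank 904. Ctsd had 0.341 ± 0.021, Ctsh 0.333 ± 0.059, Ctsa 0.246 ± 0.0087, Ctsz 0.235 ± 0.0098, Lgmn 0.183 ± 0.027, Ctsl 0.182 ± 0.015 and Ctss 0.0461 ± 0.010. The median over all 9356 genes was 0.176, so 9 of the 10 genes were above it, and Lgmn and Ctsl only slightly.

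Neighbours in this order were called separated when the order held in each of the 3 mice and the difference of the mean log2 levels per base was greater than the SD of the more variable gene. Of the 9 neighbouring pairs, 7 were separated. Ctsd and Ctsh were not, and Lgmn and Ctsl were not, each changing order in 1 mouse. The difference between Ctsa and Ctsz barely exceeded the spread, with a log2 difference of 0.06 and a larger SD of 0.06. The widest step was that from Ctsl to Ctss.

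The order depended on which length was taken. Lamp2 spans 12695 bases when all annotated exons are joined, and had only 0.119 per base of these exons, whereas Lamp1 had 0.303 and Ctsb 0.269. By this length the median over all genes was 0.0916. Lgmn, with 0.0718, and Ctss, with 0.0119, lay below it, and Ctsl, with 0.161, lay above it. By the median length of protein-coding transcripts, an alternative chosen after seeing the data, Ctsb was the highest with 0.913, followed by Lamp2 with 0.655 and Lamp1 with 0.620. Without the bases shared with Gm49369, also chosen after seeing the data, Ctsd had 0.550 per base and stood above Ctsb. Ctss was the lowest of the 10 genes by each of these 4 lengths. Which length fits the RNA present in these cells was not tested.

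The authors removed duplicate reads, which for single-end reads leaves about 1 read per position of a transcript, so that a value near 1 per base leaves little room for more. Per base of canonical transcript, Lamp1 and Lamp2 exceeded 0.5, which are 2 of the 9 members with a mean of 200 or more, against 5.83% of the 9356 genes at this level. Per base of all annotated exons none did. The level of Lamp2, and by the length of coding transcripts also that of Ctsb, came near this limit. How far the limit lowered these levels, or the CVs of genes near it, was not tested.

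**Figure D2:**
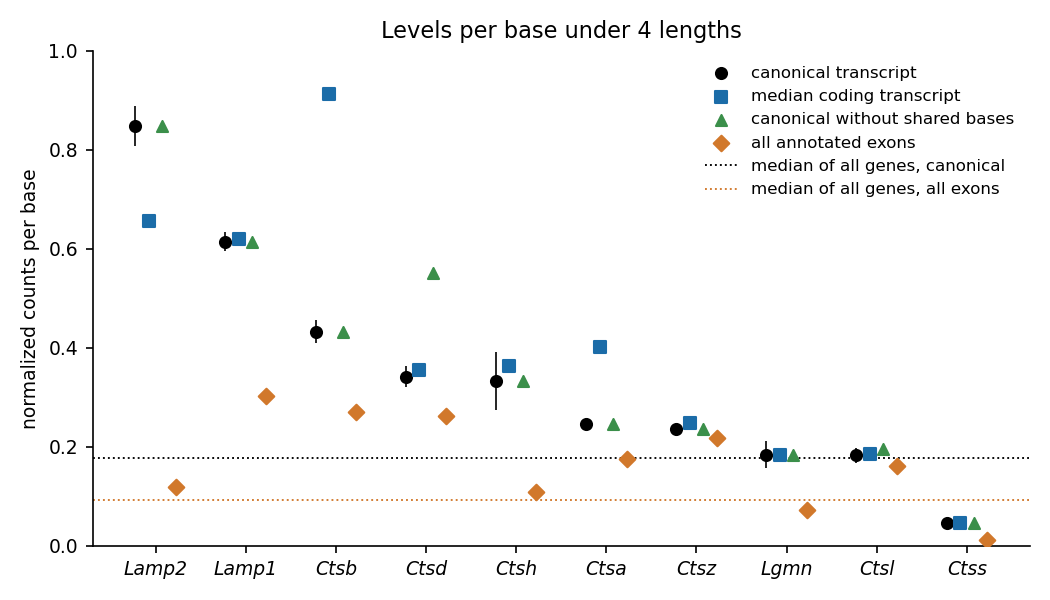
Mean normalized counts per base of each gene under 4 lengths. Black circles, with SD bars over the 3 mice, use the canonical transcript, and dotted lines show the medians of all genes with a mean of 200 or more. Lamp2 falls from 0.847 to 0.119 when all annotated exons are used, and Ctss stays lowest under each length.

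A total of 5 pairs of genes with a known relation were compared by their log2 ratio per base within each mouse. The smallest two-sided p of the exact sign-flip test is 0.25 with 3 mice, and 0.05 is out of reach. All 5 ratios had the same direction in 3 of 3 mice, each with p = 0.25 in this exact test, and 0.25 after Benjamini-Hochberg adjustment. Lamp2 exceeded its homolog Lamp1 by a log2 ratio of 0.46 ± 0.025 (SD, n = 3), but without division by length the ratio was -0.068 and by all annotated exons -1.35. Ctsb exceeded Ctsd by 0.34 ± 0.032 per base, and by 1.51 in normalized counts, a 2.85-fold difference. By all annotated exons the ratio was only 0.038. Without the shared bases of Ctsd the ratio per base was -0.35.

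Ctsl exceeded Ctss, a close relative in sequence and specificity, by a log2 ratio of 2.00 ± 0.38 per base (SD, n = 3), a 4.01-fold difference. In normalized counts the difference was 17.3-fold, and the ratio kept its direction under each length. Ctsa exceeded Neu1, the gene of the sialidase that it stabilizes, by a log2 ratio of 0.98 ± 0.21 per base, also under each length. Cst3, which encodes the secreted inhibitor cystatin C, exceeded Ctsb by 0.62 ± 0.046 per base. For Cst3 and Ctsb the ratio was -1.75 in normalized counts and -0.42 by the length of coding transcripts, so that the order of inhibitor and protease cannot be stated without a length.

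The other genes of the lysosome, grouped by role, gave a frame for these levels. The 10 genes had a median of 0.276 ± 0.012 per base (SD, n = 3), which includes Lamp1 and Lamp2, the highest 2, which encode no protease. Of 12 further protease genes, 11 were listed, with a lower median of 0.104 ± 0.0072. Tpp1, which encodes a tripeptidyl peptidase, was the highest of them with 0.296, whereas Ctsk, a protease best known from osteoclasts, had 0.0866. Ctsc, which activates serine proteases of immune granules, had 0.0448, and Ctsg and Ctsw, genes of neutrophils and cytotoxic lymphocytes, had mean normalized counts of 5 ± 1.7 and 8.7 ± 4.2. Ctse was not in the table analysed here. These 3 leukocyte genes, named for their known roles, lay below the median of their list. So did Ctsk, Dpp7 with 0.0973, and Napsa, the lowest of the list with 0.0025. Part of any list lies below its own median, and a pattern by cell type was not tested.

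Among the cystatins, Cst3 had 0.664 per base and the cytosolic inhibitor gene Cstb 0.243. Cst6 had 0.0262 and Cst7, an inhibitor gene of leukocytes, was not in the table. Of 18 other hydrolase genes, all were listed, with a median of 0.228 ± 0.013 per base, and Psap, which encodes the precursor of the saposins, was highest with 0.686. All 15 genes of the V-ATPase, the pump that acidifies lysosomes and other compartments, were listed, with a median of 0.281 ± 0.015 and Atp6v0e highest with 0.689. Both medians lay above the 0.176 of all genes. Per base of all annotated exons this did not hold for the V-ATPase genes, whose median was 0.0897 against 0.0916 for all genes, 0.0970 for the hydrolases and 0.169 for the 10 members.

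Of 12 further membrane genes, 10 were listed, and Lamp3 and Lamp5 were not in the table. Laptm4a was the highest with 0.592 per base. Cd68, a relative of the Lamp genes that marks macrophages, was the lowest with 0.0287, and Laptm5, a gene of blood cells, had 0.0426. The 6 sorting genes had a median of 0.131 ± 0.0090, with M6pr, which encodes the cation-dependent mannose 6-phosphate receptor, at 0.401 and Sort1 at 0.0584. Igf2r, the gene of the larger receptor of the same ligand, had 0.149. Across these 6 lists, 63 genes were listed, and Sort1 was the only gene with a mean of at least 200 whose CV exceeded 20%.

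**Figure D3:**
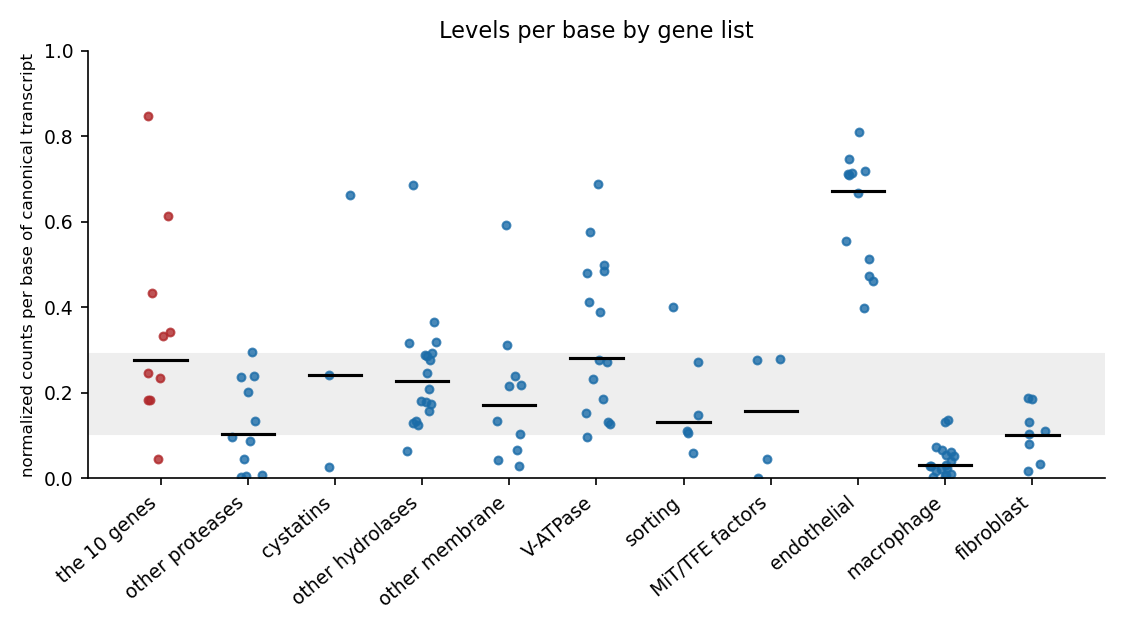
Mean normalized counts per base of canonical transcript for the genes of each list, one point per gene, with the median of the list as a line and the range between the quartiles of all genes with a mean of 200 or more in grey (0.103 to 0.290). The 10 genes have a median of 0.276, between the endothelial markers (0.672) and the macrophage markers (0.0317).

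Macrophage genes were measured beside the members because macrophages are rich in lysosomes. All 18 genes of the macrophage list were listed and none was at 0 in any mouse, and 16 of them had a mean under 200. Their summed normalized counts were 1858, 2190 and 2255 in mice 1, 2 and 3, against 10063, 9994 and 9561 for the 10 members. Mouse 1 was thus lowest for the macrophage sum. For the members, mice 1 and 2 differed by less than the SD of 272 over the 3 mice. Mertk, with 657, 559 and 627, was the largest part of the macrophage sum and was lowest in mouse 2. The defining genes Cd68, with 24, 42 and 37, and Adgre1, with 20, 41 and 48, were low in each mouse.

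Of the macrophage genes, 13 of 18 were lowest in mouse 1 when C1qa is included, which was tied between mice 1 and 3 (142, 165 and 142). With ties left out, 33.9% of the 14441 genes with a mean of 10 or more were lowest in mouse 1. Among the 10 members this was so for 2, Ctss and Lgmn. Of the 9 members with a mean of 200 or more it was so for 1, Lgmn, against 31.8% of the genes at this level. Ctss and Lgmn were both lowest in mouse 1 and highest in mouse 2. For Lgmn, mice 2 and 3 were close (653 and 638) beside a counting CV of 4.10%, so its highest mouse is not resolved. The same order was found for Cd68, C1qa (with its tie), C1qb, Mrc1 and Ptprc among the 18 macrophage genes. Col1a1, Col1a2, Col3a1 and Postn among the 8 fibroblast genes had it too, but so did the endothelial gene Eng and the cardiomyocyte gene Myh6. This order of mice was shared by 18.1% of all genes with a mean of 10 or more. The part of macrophage or fibroblast RNA in the values of Ctss and Lgmn was not tested.

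Ctsh was lowest in mouse 2 and highest in mouse 3. The matrix proteoglycan genes Dcn (813, 579 and 1007) and Lum (458, 309 and 618) of the fibroblast list and the protease gene Ctsk (157, 122 and 213) had this order too, as did the mural cell gene Abcc9 and 13.8% of all genes with a mean of 10 or more. Dcn and Lum were 2 of 8 fibroblast genes, and the other 6 were lowest in mouse 1. None of the 18 macrophage genes and none of the 12 endothelial genes had it. Whether Ctsh RNA came from another cell type in this mouse was not tested.

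**Figure D4:**
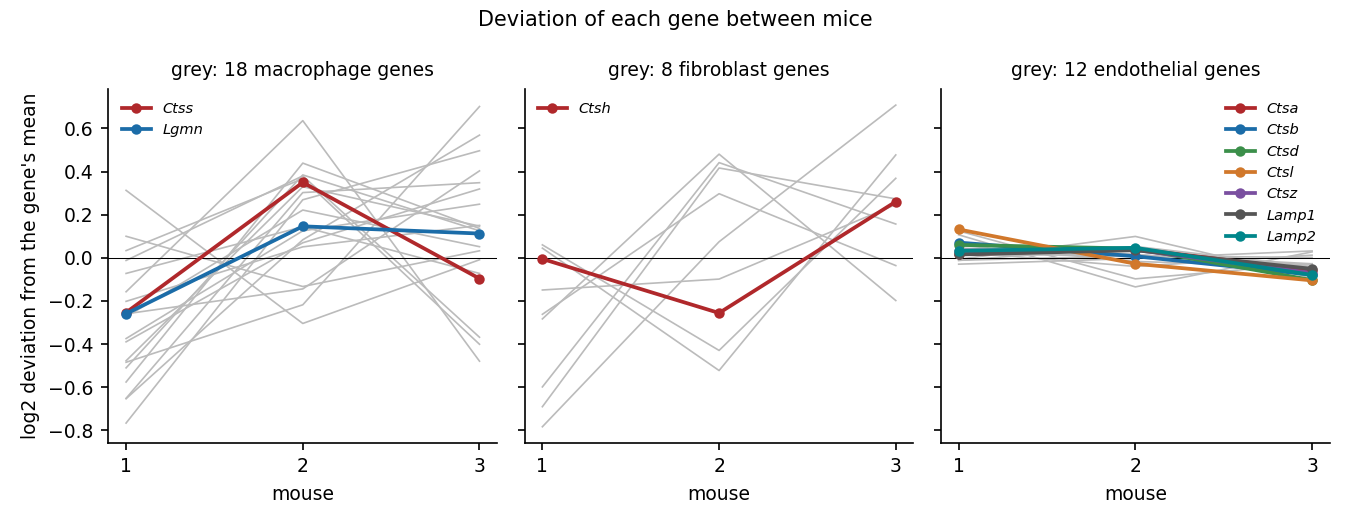
Log2 deviation of each gene from its own mean in mice 1, 2 and 3, with lines joining the values of one gene. Ctss and Lgmn are shown with 18 macrophage genes in grey, Ctsh with 8 fibroblast genes and the other 7 members with 12 endothelial genes. The 7 genes of the right panel deviate by 0.13 at most (Ctsl in mouse 1), while Ctss reaches 0.35 and Ctsh 0.26.

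The likeness of genes over mice was measured as the root mean square distance between their log2 deviations. For Ctss, the member with the largest CV, the nearest of 9358 genes with a mean of 200 or more were Xirp2 at 0.0030, Slc5a3 at 0.012 and Herc6 at 0.015. Xirp2, a gene of striated muscle, had 1195, 1807 and 1332. Only 20 genes lay within 0.05 of Ctss and 58 within 0.05 of Ctsh, whereas between 1250 and 2289 genes lay this near to each of the 7 even members. These numbers follow the size of each gene's own deviations, since genes with small deviations are the most common. For Ctss, counting alone gives a CV of 12.6%, so the order of its nearest genes is not resolved. With 3 libraries such likeness is a description of these mice.

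Mouse 3 was lowest for 7 of the 10 genes, all with a mean of 200 or more, namely Ctsa, Ctsb, Ctsd, Ctsl, Ctsz, Lamp1 and Lamp2, and the count was the same after rescaling by trimmed means of log ratios or to equal totals. Over all genes with a mean of 200 or more, 39.0% were lowest in this mouse. This share depended on transcript length, a relation examined after the values had been seen. In 4 length classes of nearly equal size it was 65.5% for the shortest canonical transcripts, up to 2349 bases, and 16.7% for the longest, from 5383 bases. The median log2 ratio of mouse 3 to the mean of the other mice was -0.11 in the shortest class and 0.10 in the longest, so that mouse 3 held relatively more reads of long transcripts.

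The members were then set beside genes of like length. Lamp2 had a log2 ratio of -0.12, against a median of -0.11 in its class, and Lamp1 had -0.08 against -0.05, so both moved as genes of their length did. Ctsd had -0.15 against -0.11 and Ctsz -0.11 against -0.05. The longer transcripts of Ctsa, Ctsb and Ctsl were also lower in mouse 3, whereas the medians of their classes were above 0. Ctsa had -0.09 and Ctsb -0.12, against 0.02 in the class of both, and Ctsl had -0.16 against 0.10. For Ctsa and Ctsb this contrast rests on the canonical length. Their median coding transcripts, with 2258.5 and 2265 bases, are within the bounds of the shortest class. Classes of that other length were not compared. Ctss, in the shortest class, had -0.18 against -0.11, but its mean of 63 is under the 200 required of the genes in the classes. Genes with a mean between 50 and 80 had a median of 0.038. Ctsh (0.39) and Lgmn (0.16) were the only members above the median of their class, and as many genes of a class lie below its median as above it. Of the V-ATPase genes, 13 of 15 were lowest in mouse 3, against 39.0% of all genes with a mean of 200 or more. Several of them are in the shortest class, where the share was 65.5%, and 1 of the 15 had a mean under 200. Their lengths were not taken into account. RNA quality was not given per library, and its part in the length relation was not tested.

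**Figure D5:**
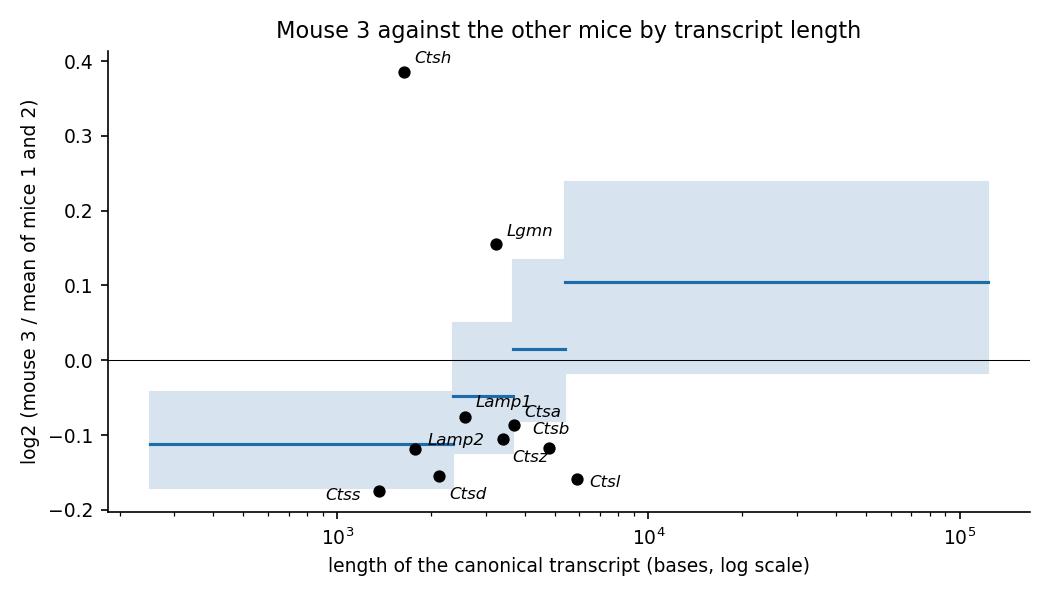
Log2 ratio of mouse 3 to the mean of mice 1 and 2 for each member (points) against the length of its canonical transcript on a log axis. Blue lines are the medians and shaded boxes the range between the quartiles in 4 classes of length. Both cover all genes with a mean of 200 or more, and the medians rise from -0.11 to 0.10. Of the 10 genes, 8 lie below the line of their class, Lamp2 and Lamp1 only slightly. As many genes of a class lie below its median as above it, and Ctss has a mean under 200.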

How the data were processed

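Per the labels and the study's methods, the authors trimmed reads with Trimmomatic 0.39, aligned them with STAR 2.7.11a to mm39, removed duplicates with Picard 3.1.1 and multi-mapping, ribosomal and mitochondrial reads, counted reads over exons on the correct strand with featureCounts 2.0.4, and normalized with DESeq2 1.36.0. The deposited values are treated as a score, since the authors rounded normalized counts to whole numbers. They are not raw counts, so no count model was fitted.

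Means, SDs and CVs were computed over the 3 mice, which the labels call biological replicates. Lengths came from the GENCODE annotation of GRCm39, which held 17475 of the 17583 genes and is newer than the authors' annotation. The Ensembl canonical transcript was the main length, and the alternatives were all annotated exons, the median protein-coding transcript, and the canonical transcript without bases shared with another gene. The last 2 were added after seeing the data. Copies of 72-base windows were searched with BLAST 2.17.0. The worth of 1 read was estimated from whole numbers between 5 and 120 that rounding leaves empty or doubles. The estimators were tested on simulated data. Python 3.11.15, numpy 2.4.6 and pandas 2.3.3 were used. Gene lists, pairs and members were chosen with earlier results of these data known. Named genes were all 10 members, the genes of the lists with the highest and lowest level per base or a described role, and the 3 genes nearest to the member with the largest CV. Alternatives were other scalings, lengths, thresholds and summaries, and leaving out each mouse.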

Additional observations from a re-analysis of the deposited data

How the results depend on the processing

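The smallest two-sided p of the exact sign-flip test is 0.25 with 3 mice and 0.5 with 2. The cause of the changes given here was not tested, except that a shorter or longer length raises or lowers a value per base by construction. The log2 ratio of Lamp2 to Lamp1 was reversed by all annotated exons (-1.35) and without division by length (-0.068). That of Ctsb to Ctsd was reversed without shared bases (-0.35) and was only 0.038 by all annotated exons. That of Cst3 to Ctsb was reversed without division by length (-1.75) and by the median coding transcript (-0.42). The ratios of Ctsl to Ctss and of Ctsa to Neu1 kept their direction under all lengths tried. With each mouse left out, all 5 kept their direction, between 0.46 and 0.48 for Lamp2 to Lamp1 and between 1.81 and 2.19 for Ctsl to Ctss.

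The number of members over 0.5 per base was 0 by all annotated exons and 5 at a threshold of 0.25. The median per base of the members was 0.169 by all exons and 0.352 by coding transcripts, that of the endothelial list 0.368 and 0.702, and that of the macrophage list 0.0215 by all exons. Members with a CV over 20% numbered between 0 and 1 with a mouse left out, and 1 had a CV over 15%, against 14.9% of all genes. All genes with a CV over 20% numbered 1273 at a mean of at least 100, and between 455, without mouse 1, and 921 with a mouse left out. Under both other scalings the number of members lowest in mouse 3 stayed at 7, and that of macrophage genes lowest in mouse 1 was 12 in place of 13. The 13 include C1qa, which before rescaling had 142 in both mouse 1 and mouse 3. No paired analysis was possible because the libraries form a single group. Depth limits Ctss, at 53 to 75 reads, most.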

Other observations

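Endothelial cells also hold a lysosome-related organelle, the Weibel-Palade body, which stores von Willebrand factor and P-selectin. The normalized counts of Vwf were 1898, 1886 and 3098 in mice 1, 2 and 3 (2294 ± 696, SD, n = 3), highest in mouse 3, with a canonical transcript of 8834 bases. Selp, which encodes P-selectin, had 74, 210 and 214 and was lowest in mouse 1. Angpt2, whose product is stored there too, had 483, 538 and 594. The genes of the small GTPases Rab27a, with 667, 643 and 714, and Rab3d, with 1414, 1261 and 1250, differed less between mice. Cd63, a tetraspanin gene of lysosomes and of this organelle, had 328, 321 and 340. Vwf and Selp had CVs of 30.4% and 48.0%, against 22.5% for Ctss and at most 17.9% for the other 9 genes.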
